A study of Homo sapiens with 6 samples.

Results

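The proteasome genes described here are the 54 symbols of the count table that begin with PSM, a letter from A to G and a number, out of 26364 symbols in all. Of the 54, 48 encode proteins of the proteasome system: 19 core subunits (8 PSMA and 11 PSMB), 20 members of the regulatory class (6 PSMC and 14 PSMD), 4 PSME activators, the inhibitor PSMF1 and 4 PSMG assembly chaperones. The PSMD symbols include assembly chaperones, PSMD5 and PSMD10 among them. All values given below for regulatory members or the regulatory particle count these chaperones in. The other 6 symbols are counted apart, since 5 name antisense RNAs and PSMC3IP encodes a protein that binds PSMC3 and is not a subunit. The 2 groups of libraries were p-UPF1 IP (replicates 3, 6 and 9), RNA that came down with an antibody against phosphorylated UPF1, and pre-IP (replicates 1, 4 and 7). All 6 libraries came from HEK293T, an established line from human embryonic kidney, and all cells had been given 200 nM okadaic acid for 3 h, so no group shows untreated cells. The pre-IP libraries also carry a rabbit IgG label, so it is not settled whether they hold RNA taken before the precipitation or RNA of a mock precipitation. They are called pre-IP by their titles.

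The proteasome is the protease that degrades ubiquitin-tagged proteins. Its 20S core is a barrel of stacked rings, with PSMA (alpha) subunits in the outer rings, which gate the entrance, and PSMB (beta) subunits in the inner rings, among them the catalytic PSMB5, PSMB6 and PSMB7. The 19S regulatory particle caps the barrel: its PSMC ATPases unfold the substrate, and some of its PSMD subunits bind or remove ubiquitin. UPF1 is the RNA helicase of nonsense-mediated mRNA decay (NMD), it is phosphorylated on mRNAs that are being decayed, and okadaic acid inhibits phosphatases that reverse this. The comparison asks how the fragments of these mRNAs were distributed between RNA bound to phosphorylated UPF1 and the control.

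Library totals were 905926 to 2057647 counts in p-UPF1 IP and 600244 to 1179369 in pre-IP. Symbols of small structured RNAs (snoRNAs, snRNAs, microRNAs, Y, vault, 7SL and 7SK RNAs, RNase P and MRP) took 24.1% to 43.1% of counts in p-UPF1 IP and 63.2% to 75.2% in pre-IP. A level in CPM of all counts divides each count by its library total, small RNAs included. The main scale was instead CPM scaled by the trimmed mean of M values (TMM), which gives changes relative to the bulk of genes. On that scale the median log2 fold change (p-UPF1 IP over pre-IP) of the 8070 genes tested was 0.10, and with library totals alone it was 1.63. In bulk RNA of this kind fewer cells with an mRNA and less of it per cell cannot be told apart. A fold change here compares p-UPF1 IP with pre-IP RNA of cells given the same treatment. It is not a change in expression between conditions. All 8 chosen markers of HEK293T cells, VIM among them, had counts. Their sum was 964 to 1135 CPM of all counts in p-UPF1 IP and 200.0 to 287 in pre-IP. VIM gave most of the counts of this list, so the sum says little about its other members. NES and EPCAM had few counts, fewer over all libraries together than COL1A1, a marker of other tissues. Of 8 immune markers, 6 had no count in any library, PTPRC and CD74 among them, and the list summed to at most 1.09 CPM in p-UPF1 IP and 0 in pre-IP. Of 9 markers of other tissues 6 had no count, and the list summed to 3.31 to 6.80 CPM in p-UPF1 IP and 0 to 6.35 in pre-IP.

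Relative to other mRNAs, the tested core proteasome mRNAs all had negative log2 fold changes with phosphorylated UPF1, few of them past the threshold, and regulatory mRNAs lay closer to 0. Of the 48 genes, 40 had enough counts to be tested, 1 rose (the activator PSME4) and 5 fell (PSMA5, PSMA6, PSMB1, PSME3 and PSMG1; edgeR quasi-likelihood F-test, Benjamini-Hochberg adjusted p below 0.05 over all genes tested). Across all genes tested 8.81% rose and 10.9% fell, 19.7% together, so 5 of 40 lower and 1 of 40 higher are near or below the background. By class, 3 of 14 core, 0 of 19 regulatory and 2 of 7 other members fell. At an unadjusted p below 0.05, 7 of 14 core and 4 of 19 regulatory members were lower, against 16.7% of all genes tested. DESeq2 called 3 core and 0 regulatory members lower (8.86% of all genes), and limma-voom 5 and 3 (12.8% of all genes). The median log2 fold change was -0.74 over the 14 tested core members and -0.35 over the 19 tested regulatory members (-0.11 without pre-IP replicate 4). This order was lost with the coding-length trend removed (-0.38 core, -0.39 regulatory) and turned with the transcript-length trend removed (-0.054 core, -0.15 regulatory). All 14 core members had a negative log2 fold change, as did 15 of 19 regulatory members and 46.2% of all genes tested. On the TMM scale the groups did not overlap for 6 core members, all lower in p-UPF1 IP, and for 4 regulatory members, also lower. Of all tested genes, 17.7% had p-UPF1 IP libraries entirely below pre-IP ones on that scale. PSME1 and PSME4 were entirely above, as were 21.9% of all tested genes. In CPM of all counts PSMA7, PSMB3, PSMD7, PSMD10 and PSMD11, all among the lower members, were instead entirely higher in p-UPF1 IP. With library totals alone the median tested gene was 3.10-fold higher in p-UPF1 IP and 60.4% of all tested genes were called higher. The share of all tested genes without overlap on that scale was not computed. With totals outside small structured RNAs 0 of the 5 lower calls held. With the transcript-length trend removed PSMA6 (adjusted p = 0.365), PSMB1 (0.544) and PSME3 (0.847) lost theirs, and with the coding-length trend removed PSMA5 (0.0685), PSMA6 (0.0574) and PSME3 (0.217) did.

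**Figure D1:**
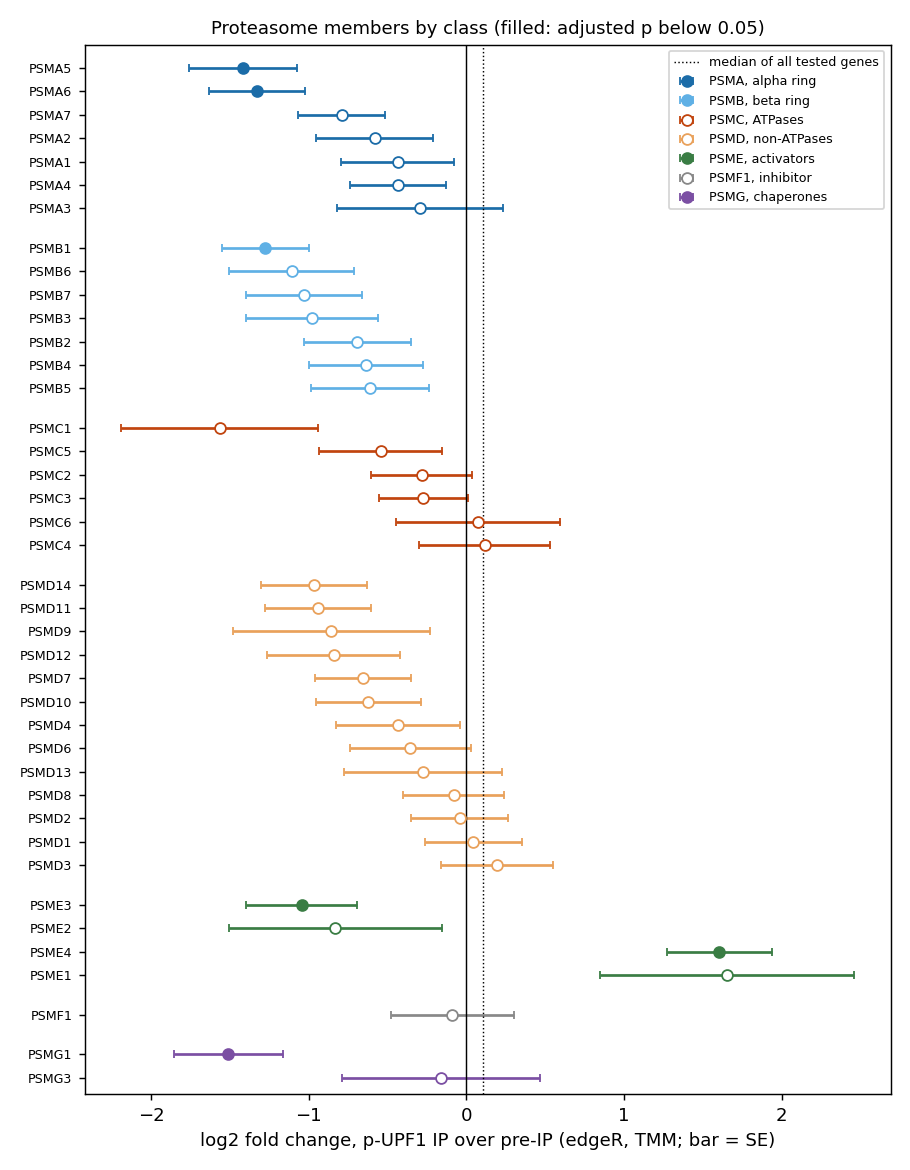
Log2 fold change, p-UPF1 IP over pre-IP, of the 40 tested proteasome members by class. Points are edgeR estimates, bars are standard errors, filled points have an adjusted p below 0.05, and the dotted line is the median of all 8070 tested genes (0.10). The core members all lie below 0, and PSME1 and PSME4 stand apart on the right.

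The ratio of core to regulatory counts within a library does not depend on how libraries are scaled to each other. Summed core counts were 2145, 1999 and 1341 in p-UPF1 IP (replicates 3, 6 and 9) and 991, 444 and 646 in pre-IP (replicates 1, 4 and 7). Summed regulatory counts were 3146, 2543 and 1774 in p-UPF1 IP and 946, 397 and 677 in pre-IP. The core-to-regulatory ratio was thus 0.682, 0.786 and 0.756 in p-UPF1 IP against 1.05, 1.12 and 0.954 in pre-IP. The ranges do not overlap, and the difference in mean log2 ratio was -0.49, against SDs of 0.11 in p-UPF1 IP and 0.12 in pre-IP (n = 3 each). No p is given for this ratio, since the classes were chosen with results known. Leaving out each library in turn gave differences of -0.55 to -0.43. The median log2(CPM + 1) of the members in place of sums gave -0.11, with groups that overlap. Leaving out the most counted member of each side gave -0.49. The PSMA to PSMC ratio alone was 1.12, 1.27 and 1.42 in p-UPF1 IP and 2.03, 1.64 and 1.90 in pre-IP, which also does not overlap.

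As a share of all counts, every class with the exception of the assembly chaperones was higher in each p-UPF1 IP library than in any pre-IP library. The core held 0.120% ± 0.0241 of counts in p-UPF1 IP and 0.0755% ± 0.0079 in pre-IP (SD, n = 3 each), a ratio of 1.59. The regulatory particle held 0.162% ± 0.0299 and 0.0727% ± 0.0071, a ratio of 2.23. The activators held 0.0249% ± 0.0034 in p-UPF1 IP and 0.0068% ± 0.0025 in pre-IP, a ratio of 3.66. PSME4 alone gave 746 of the 1192 activator counts in p-UPF1 IP and 51 of 200 in pre-IP. As a share of counts outside small structured RNAs the ratio was 0.76 for the core and 1.07 for the regulatory particle, so the direction for the core turns on whether small RNAs are in the denominator, while the core ratio was below the regulatory one with either. With library totals alone, 3 of 14 core members (PSMA1, PSMA4 and PSMB4) and 13 of 19 regulatory members were called higher and 0 of either lower, where 60.4% of all genes tested were called higher and 1.93% lower.

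**Figure D2:**
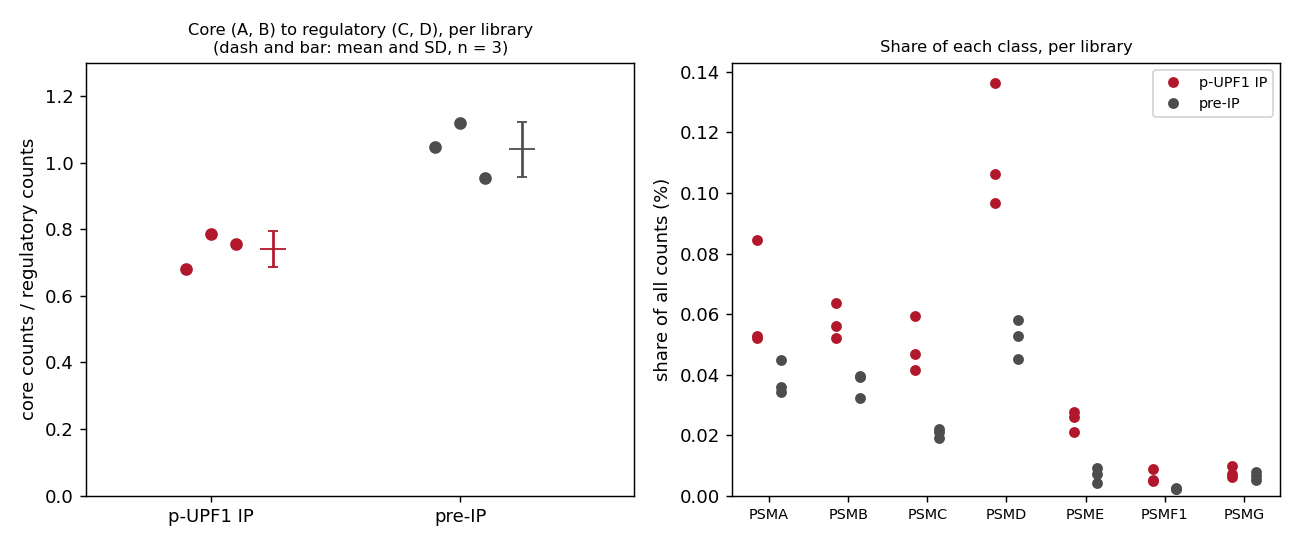
Left, summed core counts divided by summed regulatory counts in each library, with the mean and SD of each group (n = 3). Right, share of all counts (%) held by each class in each library. The ratio is 0.682 to 0.786 in p-UPF1 IP and 0.954 to 1.12 in pre-IP. The shares of all classes except PSMG are higher in p-UPF1 IP without overlap. With library totals alone the median tested gene was 3.10-fold higher in p-UPF1 IP.

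The classes also differ in coding length, taken from the principal GENCODE 29 transcript matched by symbol. The 14 tested core members spanned 603 to 831 nt of coding sequence and the 19 tested regulatory members 669 to 2859 nt, with medians of 741 and 1218 nt. Among 7465 tested protein-coding genes the log2 fold change increased with coding length (Spearman's rho = 0.46). It did so among the 40 tested proteasome members too (rho = 0.42 and Pearson's r = 0.47 with log2 length, and 0.38 and 0.25 without PSME4), with rho = 0.31 within the core and 0.38 within the regulatory particle. These are correlations across genes of the same 6 libraries, and genes are not replicates. Genes in the coding-length range of the core (703 genes) had a median log2 fold change of -0.34 (quartiles -1.04 and 0.29), against -0.74 for the core, and 14.4% of them were called lower. Of the 14 core members, 4 lay below the lower quartile of that range and 0 above the upper. Genes in the range of the regulatory particle (4981 genes) had a median of 0.09, against -0.35 for its members, of which 8 of 19 lay below the lower quartile and 0 above the upper. That range reaches 2859 nt while the members' median was 1218 nt, so it does not match them in length. Genes of the length bin with a median of 1212 nt had a median log2 fold change of -0.046 (quartiles -0.61 and 0.68). With the coding-length trend of all genes removed, a setting added after seeing the data, the median was -0.38 for the core and -0.39 for the regulatory particle, a difference of 0.0026 in place of -0.39. With the trend of spliced transcript length removed it was 0.093. For 3' UTR length rho was 0.046 over the 40 members, 0.23 within the core and -0.45 within the regulatory particle, against 0.10 over all tested protein-coding genes.

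**Figure D3:**
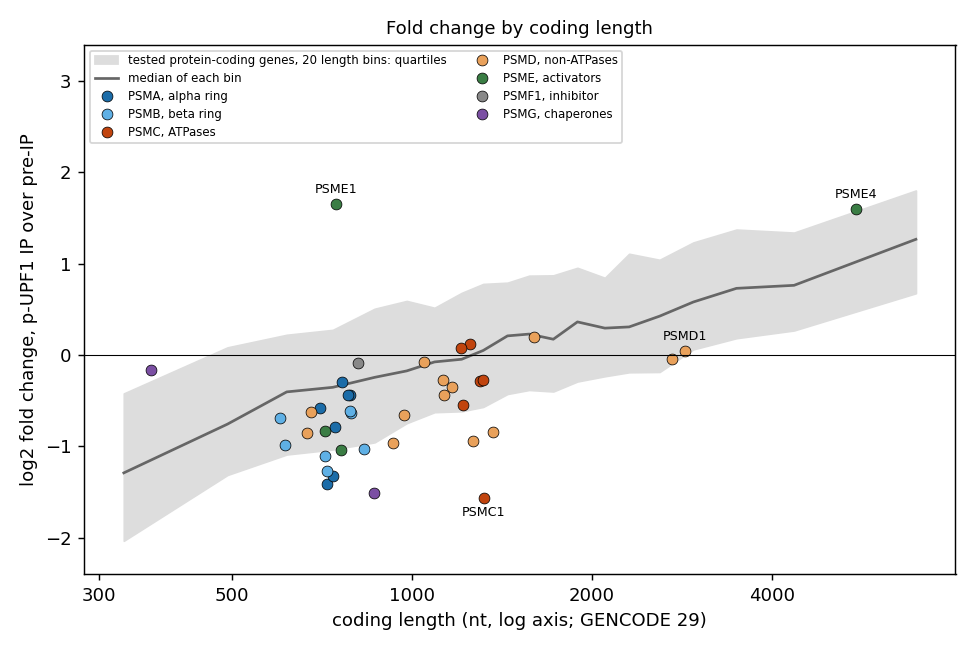
Log2 fold change, p-UPF1 IP over pre-IP, against coding length (nt, log axis) of the 40 tested members, coloured by class. The grey line and band are the median and quartiles of 20 length bins over 7465 tested protein-coding genes. Core members sit at the short end, nearly all below the grey line, and PSME4, with 5529 nt of coding sequence, sits near the upper edge of the band at the long end.

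In the alpha ring PSMA5 and PSMA6 fell and the other 5 tested members had log2 fold changes from -0.79 to -0.29, none past the threshold. PSMA5 had 46.7, 59.7 and 71.0 TMM-scaled CPM in p-UPF1 IP (replicates 3, 6 and 9) against 150, 240 and 93.3 in pre-IP (replicates 1, 4 and 7). All p-UPF1 IP libraries were below all pre-IP libraries, but the pre-IP values were widely spread. Its log2 fold change was -1.42 (SE 0.34, edgeR adjusted p = 0.0083), and the call was lost without p-UPF1 IP replicate 3 (log2 fold change -1.27, adjusted p = 0.0559). PSMA6 had 42.5, 45.1 and 49.8 CPM in p-UPF1 IP against 90.8, 129 and 128 in pre-IP, a log2 fold change of -1.33 (SE 0.30, edgeR adjusted p = 0.00563). The p-UPF1 IP libraries were close together and well below the others. GENCODE 29 names 4 pseudogenes of PSMA6, and reads they share with it cannot be told apart here.

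PSMA7, the most counted alpha subunit, had 106, 84.8 and 95.1 CPM in p-UPF1 IP and 159, 183 and 156 in pre-IP. The groups did not overlap, but its log2 fold change of -0.79 (SE 0.28) did not pass (edgeR adjusted p = 0.0531). In CPM of all counts, however, PSMA7 was entirely higher in p-UPF1 IP, at 168.2, 126.6 and 187.7 against 105.1, 84.97 and 95.24 in pre-IP. With library totals alone the median tested gene was 3.10-fold higher in p-UPF1 IP. At the other end, PSMA3 had 17.4, 18.6 and 39.7 TMM-scaled CPM in p-UPF1 IP and 48.6, 28.6 and 12.1 in pre-IP. Its libraries overlapped fully (log2 fold change -0.29, SE 0.53, edgeR adjusted p = 0.740). PSMA1, PSMA2 and PSMA4 lay between -0.58 and -0.43. PSMA8, the testis form of an alpha subunit, had no count in any library.

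In the beta ring PSMB1 fell, and the other 6 tested members had log2 fold changes from -1.11 to -0.61. PSMB1, a structural beta subunit and the most counted of the ring over both groups together, had 78.2, 72.1 and 69.3 CPM in p-UPF1 IP against 174, 165 and 192 in pre-IP. Its libraries agreed closely within each group and did not overlap (log2 fold change -1.27, SE 0.28, edgeR adjusted p = 0.00378). The call held without each library in turn. In CPM of all counts, however, PSMB1 was at 124, 108 and 137 in p-UPF1 IP and 115, 76.6 and 118 in pre-IP, which overlap. Its lower TMM value is thus a statement about PSMB1 relative to other mRNAs.

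The 3 catalytic subunits did not pass the threshold. PSMB5, which carries the chymotrypsin-like activity, had 40.3, 29.5 and 44.2 CPM in p-UPF1 IP and 56.3, 85.9 and 38.0 in pre-IP, with overlap (log2 fold change -0.61, SE 0.37, edgeR adjusted p = 0.268). PSMB6, the caspase-like subunit, had 17.4, 28.0 and 21.8 CPM in p-UPF1 IP and 55.0, 50.1 and 39.7 in pre-IP, without overlap (-1.11, edgeR adjusted p = 0.0578). PSMB7, the trypsin-like subunit, had 38.5, 65.5 and 43.6 CPM in p-UPF1 IP and 99.8, 154 and 57.0 in pre-IP, where 1 library of each group crosses the other (-1.03, edgeR adjusted p = 0.0585). PSMB2, PSMB3 and PSMB4 had log2 fold changes of -0.69, -0.98 and -0.64, none past the threshold.

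The interferon-inducible subunits that replace the catalytic ones in the immunoproteasome had few counts or none. PSMB8 and PSMB9 had 0 of 4803767 counts in p-UPF1 IP and 0 of 2724618 in pre-IP, which allows up to 0.624 CPM in p-UPF1 IP and 1.10 in pre-IP (3 counts over the group, counting error only). GENCODE 29 places exons of PSMB8 and PSMB9 over each other on opposite strands, and whether such reads were counted is not given in the sources used here. PSMB10 had 7 counts in p-UPF1 IP and 4 in pre-IP and was not tested. PSMB11, the thymus form, had no count. PSMD5, a broadly used chaperone of the regulatory particle, was also listed at 0 in all 6 libraries, and whether the counting rules set any of these zeros was not tested.

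No ATPase mRNA passed the threshold. PSMC3, the most counted, had 102, 95.7 and 93.4 CPM in p-UPF1 IP and 114, 140 and 102 in pre-IP, touching at the edge (log2 fold change -0.27, SE 0.28, edgeR adjusted p = 0.537). PSMC4 had 53.4, 44.8 and 39.7 CPM in p-UPF1 IP and 34.5, 78.8 and 24.2 in pre-IP. Its mean was almost the same in both groups and the pre-IP libraries lay on both sides (0.12, SE 0.41, edgeR adjusted p = 0.871). PSMC2, PSMC5 and PSMC6 had log2 fold changes of -0.28, -0.54 and 0.07. PSMC1 stood apart from the other ATPases, with 4.89, 7.64 and 13.4 CPM in p-UPF1 IP and 37.1, 14.3 and 20.7 in pre-IP. Its groups did not overlap, and its log2 fold change of -1.56 (SE 0.62) rests on 61 counts in p-UPF1 IP and 45 in pre-IP (edgeR adjusted p = 0.0852). GENCODE 29 names 13 pseudogenes of PSMC1, more than of any other member, so its count is uncertain.

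**Figure D4:**
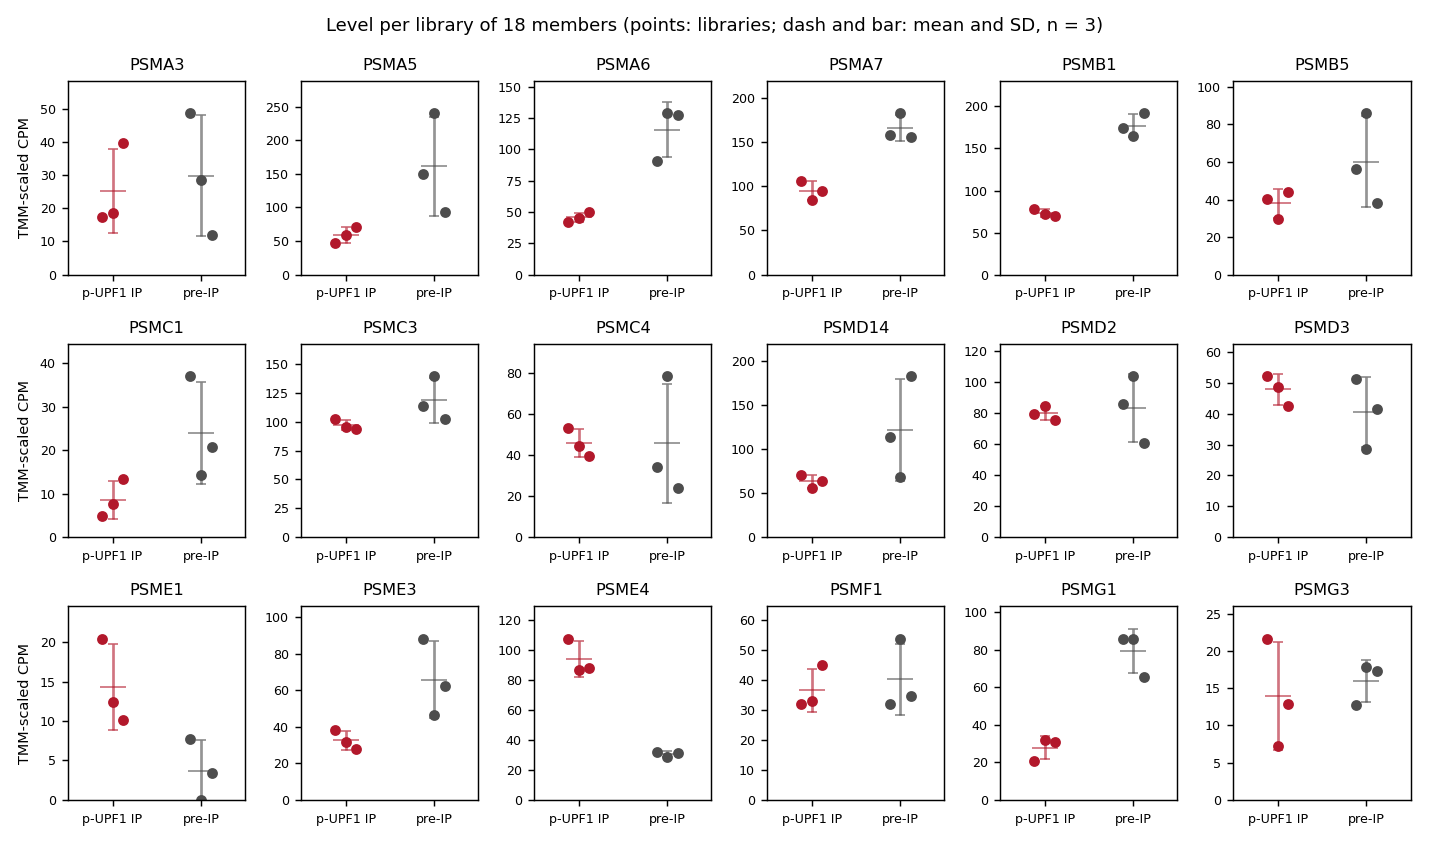
TMM-scaled CPM in each library of 18 members: those called, the most counted of each class and those with the highest and lowest log2 fold change of each class. Points are libraries, and the dash and bar are the mean and SD (n = 3). PSME4 is higher in all p-UPF1 IP libraries, PSMA5, PSMA6, PSMB1, PSME3 and PSMG1 are lower in all of them, and PSMC3, PSMC4, PSMD2, PSMD3 and PSMF1 overlap.

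Among the 13 tested non-ATPase mRNAs log2 fold changes ran from -0.96 to 0.20 and 0 passed. The 3 with the longest coding sequences lay at the top. PSMD2, a large scaffold subunit that docks ubiquitin-like proteins, had 79.1, 84.5 and 75.5 CPM in p-UPF1 IP and 85.7, 104 and 60.5 in pre-IP (log2 fold change -0.04, SE 0.31, edgeR adjusted p = 0.940). PSMD1, the other large scaffold, had 78.5, 68.8 and 75.5 CPM in p-UPF1 IP and 72.9, 89.5 and 57.0 in pre-IP (0.05, edgeR adjusted p = 0.934). PSMD3 had 52.2, 48.8 and 42.5 CPM in p-UPF1 IP and 51.2, 28.6 and 41.5 in pre-IP (0.20, SE 0.35, edgeR adjusted p = 0.743). For all 3 the groups overlapped.

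At the lower end was PSMD14, the deubiquitinase of the lid, with 70.9, 55.7 and 64.3 CPM in p-UPF1 IP and 114, 68.0 and 183 in pre-IP. The pre-IP libraries were widely spread (log2 fold change -0.96, SE 0.34, edgeR adjusted p = 0.0526), and it was past the threshold without pre-IP replicate 4 (adjusted p = 0.0165) and at -0.54 without pre-IP replicate 7 (adjusted p = 0.291). PSMD11, a lid subunit, had 33.0, 36.8 and 45.9 CPM in p-UPF1 IP and 60.1, 93.1 and 72.6 in pre-IP, with no overlap (-0.94, edgeR adjusted p = 0.0577). On the TMM scale PSMD7, the partner of PSMD14, and PSMD10, an assembly chaperone of the base, were also lower in every p-UPF1 IP library. Their log2 fold changes of -0.66 and -0.62 did not pass. PSMD4, PSMD6, PSMD8, PSMD9, PSMD12 and PSMD13 lay between -0.86 and -0.08 with overlapping groups. In CPM of all counts PSMD7, PSMD10 and PSMD11 were instead entirely higher in p-UPF1 IP. PSMD11 was there at 52.49, 54.89 and 90.52, against 39.85, 43.32 and 44.44 in pre-IP. With library totals alone the median tested gene was 3.10-fold higher in p-UPF1 IP. PSMD5-AS1 was listed at 0 in all 6 libraries, as was PSMD5.

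Of the 4 activators, which open the core barrel without ATP, PSME4 rose, PSME3 fell, and PSME1 and PSME2 did not pass the threshold. PSME4 encodes PA200, a single very long chain known from sperm and from DNA repair, and was the only member to rise on the TMM scale. It had 352, 237 and 157 counts in p-UPF1 IP and 25, 8 and 18 in pre-IP. These are 107, 86.3 and 87.8 TMM-scaled CPM against 32.0, 28.6 and 31.1, with groups far apart (log2 fold change 1.60, SE 0.33, edgeR adjusted p = 0.00289). Of 1000 counts of proteasome members, PSME4 took 57.6, 46.2 and 44.6 in p-UPF1 IP and 11.6, 8.76 and 12.2 in pre-IP. The 425 tested genes with at least 5000 nt of coding sequence had a median of 1.25 (quartiles 0.67 and 1.80), between which PSME4 lies, and 39.5% of them were called higher. With the coding-length trend removed PSME4 was at 0.57 (adjusted p = 0.296). An exon of ACYP2 overlaps PSME4 on the opposite strand.

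PSME1 and PSME2 encode the ring that the interferon response adds to the core, and PSME3 the nuclear ring of the same family. PSME1 had 67, 34 and 18 counts in p-UPF1 IP and 6, 0 and 2 in pre-IP. All p-UPF1 IP libraries were higher, but on 8 pre-IP counts its log2 fold change of 1.65 (SE 0.81) did not pass (edgeR adjusted p = 0.158). PSME2, with 26, 30 and 9 counts in p-UPF1 IP and 8, 4 and 11 in pre-IP, had -0.83 (edgeR adjusted p = 0.416). PSME3 fell, with 38.2, 31.7 and 28.0 CPM in p-UPF1 IP and 88.3, 46.6 and 62.2 in pre-IP (-1.04, SE 0.35, edgeR adjusted p = 0.0457). That call was lost in 13 of 18 alternatives, with RLE scaling (adjusted p = 0.0501) and with each library left out except pre-IP replicate 4, up to an adjusted p of 0.188 without pre-IP replicate 1. An exon of BECN1 overlaps PSME3 on the opposite strand.

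The inhibitor PSMF1 (PI31) had 31.8, 32.8 and 44.7 CPM in p-UPF1 IP and 32.0, 53.7 and 34.6 in pre-IP, which overlap (log2 fold change -0.09, SE 0.39, edgeR adjusted p = 0.896). Of the PSMG chaperones, which assemble the alpha ring, PSMG1 fell. It had 20.8, 31.7 and 30.8 CPM in p-UPF1 IP and 85.7, 85.9 and 65.7 in pre-IP, with a wide gap between groups (-1.51, SE 0.34, edgeR adjusted p = 0.00541). Its call held without each library in turn and with either length trend removed, but in CPM of all counts its groups overlapped. PSMG2, the partner of PSMG1, had 3, 4 and 8 counts in p-UPF1 IP and 12, 2 and 10 in pre-IP, too few for the test, and in CPM of all counts its groups overlapped. DESeq2, which tested it, called it lower (adjusted p = 0.0353), as did edgeR without pre-IP replicate 4 (adjusted p = 0.0460), and edgeR without the filter did not (adjusted p = 0.0784). Its ratio of CPM of all counts, p-UPF1 IP over pre-IP, was 0.354 (exact 95% interval 0.173 to 0.704, counting error only). That interval leaves out the spread between libraries, and 8 of the 15 p-UPF1 IP counts came from replicate 9. With library totals alone the median tested gene was 3.10-fold higher in p-UPF1 IP. PSMG3 had 21.7, 7.28 and 12.9 CPM in p-UPF1 IP and 12.8, 17.9 and 17.3 in pre-IP (-0.16, edgeR adjusted p = 0.885), and PSMG4 had 11 counts in p-UPF1 IP and 7 in pre-IP.

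Levels of members can be set beside each other only per length. As CPM of all counts per kilobase of coding sequence, with UTR reads included, mean levels of the 14 tested core members ran from 52.3 (PSMB6) to 216 (PSMA7) in p-UPF1 IP and from 23.1 (PSMA3) to 143 (PSMB1) in pre-IP. On the same per-kilobase scale PSME4 was at 28.5 in p-UPF1 IP and 3.23 in pre-IP, below every tested core member in both groups. PSME1 was the only other tested member as low in pre-IP, at 3.21, and PSMC1 was the lowest in p-UPF1 IP, at 11.5.

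Other genes of the pathway were described from a list of 32 symbols, of which 29 are in the table and 28 were tested: 2 rose, 4 fell, and the median log2 fold change was -0.20. Both counts are near the shares of all genes tested (8.81% higher and 10.9% lower, with a median of 0.10). USP14, a deubiquitinase of the regulatory particle, rose by 1.24 on the log2 scale (SE 0.37, edgeR adjusted p = 0.0267), with 54.7, 67.0 and 92.8 CPM in p-UPF1 IP and 33.3, 35.8 and 22.5 in pre-IP. UBA1, the main ubiquitin-activating enzyme, rose by 0.94 (edgeR adjusted p = 0.0454), with 252, 331 and 261 CPM in p-UPF1 IP and 94.7, 176 and 176 in pre-IP. The ubiquitin genes UBB and RPS27A fell by 1.19 and 1.69 (edgeR adjusted p = 0.0157 and 0.0008). RPS27A also encodes a ribosomal protein. SHFM1, the smallest lid subunit, fell by 1.62 (edgeR adjusted p = 0.0321), and RAD23B, a shuttle that brings ubiquitylated proteins to the proteasome, fell by 1.14 (edgeR adjusted p = 0.0256) although its groups overlapped. ADRM1, a ubiquitin receptor, had -0.22, POMP, a core assembly factor, -0.96, VCP, the unfoldase upstream of the proteasome, 0.70, and NFE2L1, the transcription factor that induces proteasome genes, 0.66, none past the threshold. In CPM of all counts the groups of UBB, RPS27A, SHFM1 and RAD23B overlapped. Whether the pathway calls hold under other scaling or with length trends removed was not tested.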

How the data were processed

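Short RNAs and RNA fragments were sequenced from 6 libraries. The submitters' processing notes name hg19, STAR 2.5.2b, cutadapt 1.15, featureCounts and Subread 1.5.0p3. The sources used here do not give the strand setting, annotation or multimapping rules. Fragments from overlapping genes, antisense partners and near-identical copies therefore cannot be told apart. The authors deposited whole-number counts per gene symbol with no normalization, 1 column per library, and 0 columns were left unused.

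Genes were compared by F-test on quasi-likelihood fits (edgeR 4.0.16, R 4.3.3) after TMM scaling and filterByExpr (minimum count 10), with Benjamini-Hochberg adjustment at 0.05 over 8070 genes. SE is the absolute log2 fold change over the square root of F. The fit was tested on simulated counts. A p that misses the threshold does not show that the groups were alike. Replicate libraries of a group differed by more than sampling noise (chi-square per gene 10.9 to 23.4). The labels do not say that replicates were separate cultures, so p-values measure the spread between these libraries only, which may be technical. Inserts carried no described molecular identifiers, so floors and intervals cover counting error only. Lengths, gene overlaps and pseudogene names come from GENCODE 29 (GRCh38, a later build than the files'), matched by symbol, so no coordinates are given.

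Other settings tried were library totals, upper-quartile and RLE scaling, other filters, DESeq2 1.42.0, limma-voom (limma 3.58.1), small RNAs or the 10 most counted genes left out, length trends removed and each library left out. The members and lists were chosen with earlier results of these data known. Values per library are given for members past the threshold, the most counted of each class and the highest and lowest log2 fold change of each class. The catalytic subunits, PSMB6 and PSMB7 among them, and PSMD1, PSMD11 and PSME2 were added after their values were seen. Counts per library of PSMG2 and of symbols that are not subunits are also given outside this rule.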

Additional observations from a re-analysis of the deposited data

How the results depend on the processing

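With library totals alone the members called lower were 0 and those called higher 19, and the median log2 fold change was 0.82 for the core and 1.16 for the regulatory particle, both reversed. Of all tested genes 1.93% were called lower and 60.4% higher with these totals. On that scale PSMA5 (0.20), PSMA6 (0.25), PSMB1 (0.27), PSME3 (0.46) and PSMG1 (0.046) reversed, as did PSMC3 (1.29), PSMD2 (1.52) and PSMF1 (1.498), and the median of all tested genes was 1.63. PSMA3 (1.29), PSMA7 (0.78), PSMB5 (0.98), PSMD14 (0.56) and PSMG3 (1.38) turned positive too, and PSMC1 was at -0.015. With totals outside small structured RNAs, a setting chosen after seeing the data, 0 members were lower and the medians were -0.22 (core) and 0.18 (regulatory), where all tested genes had 0.67. In that setting 4.04% of all tested genes were called lower. The members called lower were 10 with a stricter filter (minimum count 30) and with limma-voom, 3 with the transcript-length trend removed and 2 with the coding-length trend removed, and those called higher 2 and 0 under these trends. Of all tested genes the share called lower was 18.1% with the stricter filter, 12.8% with limma-voom, 6.19% with the transcript-length trend removed and 4.03% with the coding-length trend removed, against 10.9%. The share called higher was 4.49% with the transcript-length trend removed and 3.74% with the coding-length trend removed, against 8.81%. With the transcript-length trend removed the core median was -0.054 and the core minus regulatory difference 0.093. With the coding-length trend removed the all-gene median was -0.0070. The core-to-regulatory log2 difference was -0.11 from medians in place of sums, and the share ratios were 0.76 (core) and 1.07 (regulatory) outside small RNAs. The cause of these changes was not tested.

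Leaving out each library in turn, members called lower were 3 to 8 (3 without p-UPF1 IP replicate 3, 8 without pre-IP replicate 4) and those called higher 1. Of all tested genes, 6.25% were called lower without p-UPF1 IP replicate 3 and 8.94% without pre-IP replicate 4. The share of all tested genes called higher ran from 3.30% (without p-UPF1 IP replicate 3) to 9.03% (without pre-IP replicate 1). Over the same fits the core median was -0.88 to -0.66, the regulatory median -0.43 to -0.11 and their difference -0.55 to -0.32. PSME4 was called in 17 of 18 alternatives (adjusted p = 1.19e-05 to 0.296). No paired analysis was possible because the groups share no replicate number in the labels. Members with few pre-IP counts were measured less precisely: PSME1 rests on 8 and PSME2 on 23, with SEs of 0.81 and 0.68, against 293 and 0.28 for PSMB1.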

Other observations

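Of the symbols that are not subunits, PSMA3-AS1 had 61, 49 and 28 counts in p-UPF1 IP and 19, 10 and 8 in pre-IP, with a log2 fold change of -0.44 (edgeR adjusted p = 0.599), beside -0.29 for PSMA3. PSMC3IP, which takes part in meiotic recombination, had 96, 112 and 68 counts in p-UPF1 IP and 38, 15 and 16 in pre-IP (-0.24, edgeR adjusted p = 0.705). PSMG3-AS1 had 17, 14 and 9 counts in p-UPF1 IP and 3, 0 and 0 in pre-IP, a ratio of CPM of all counts of 7.56 (exact 95% interval 2.41 to 38.2, counting error only). On that scale the median tested gene was 3.10-fold higher in p-UPF1 IP, a value inside the interval. Its partner PSMG3, whose exons overlap it on the opposite strand, had 71, 20 and 23 counts in p-UPF1 IP and 10, 5 and 10 in pre-IP. PSMD6-AS2 had 9 counts in p-UPF1 IP and 5 in pre-IP, and PSMB8-AS1 had none.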
